A study of Mus musculus with 12 samples.

Results

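Cytochrome P450 enzymes outside the Cyp2c subfamily were followed in spontaneous hepatocellular carcinoma (HCC) and normal liver of mice. The set held 37 genes, named by symbol: members of P450 families 1 to 4 other than Cyp2c, of families 17, 20 and 26, and the reductase Por. Of these, 32 had a probe set that names 1 gene, out of 18193 such genes measured, and each was represented by its brightest probe set. A further 4 (Cyp2a4, Cyp2a5, Cyp3a41a and Cyp4a10) were named only by 3 probe sets that name 2 genes each and are described apart. Por, which passes electrons to every microsomal P450, had no probe set named for it and was not analysed here. No filter on low values was applied, so all 32 entered every count.

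All 12 livers came from untreated B6C3F1 mice, a first-generation hybrid strain, aged 2 years and taken from a National Toxicology Program bioassay. One group was 6 spontaneous HCC and the other was 6 normal livers, each hybridised to 1 single-colour Affymetrix array. The labels give no sex, and they do not say whether each tumour came from a different mouse, so p-values measure only the spread between these arrays. Whole tissue was measured, and fewer cells of a type and less RNA per cell cannot be told apart.

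P450s are haem enzymes of the endoplasmic reticulum that oxidise drugs, steroids, fatty acids and retinoids, and hepatocytes hold most of the body's supply. Many are switched on by nuclear receptors that sense foreign compounds or lipids, and several mouse subfamilies differ between males and females because growth hormone reaches the liver in a different rhythm in each sex. Others follow the position of the hepatocyte between the portal and the central vein.

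Values below are log2 levels, that is log2 of intensity plus 16 after quantile normalization, on a scale whose floor is 4. As deposited, arrays had median intensities of 92.4 to 114. The number of arrays limits the precision. Summed over the 5 measured of 6 hepatocyte markers (Alb, Apoa1, Ttr, Serpina1b and Fgb), normal livers gave 267784 to 275237 intensity units and HCC 260997 to 284918, and limma called 0 of the 5 between the groups (0 also at an unadjusted p under 0.05). These markers lay near the top of the scale, with Apoa1 at 16.06 in every normal liver, where a difference may be understated. The sums therefore cannot show that hepatocyte content was equal. Normal 1, normal 3, HCC 1 and HCC 4 lacked Y-linked signal, read from Kdm5d, Uty and Eif2s3y (mean log2 level 4.17 to 4.85) and had Xist at 11.79 or more. The other 8 arrays had a Y-linked mean of 8.96 to 9.77 and Xist at 7.56 or less. Each group thus held 2 arrays without and 4 with Y-linked signal.

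Between HCC and normal liver, 12 of the 32 P450 genes fell, 0 rose and 20 did not pass (limma, Benjamini-Hochberg adjusted p under 0.05 over all 18193 genes, two-sided). Of all genes 7.24% fell and 6.48% rose. At an unadjusted limma p under 0.05 there were 19 of the 32, against 5194 of all 18193 genes. Of the 19, Cyp20a1 alone lay above 0. The median log2 difference of the 32 was -0.80, against -0.04 over all genes, and 25 of the 32 differences were below 0. In 9 of the 12, every HCC lay below every normal liver, as in 4.5% of all genes, and in none every HCC above, as in 4.25% (8.76% in either direction). Of all genes 13.7% passed in either direction. The 12 were Cyp2b10, Cyp2d22, Cyp2j5, Cyp2g1, Cyp2r1, Cyp3a25, Cyp4f13, Cyp4f14, Cyp4f15, Cyp4v3, Cyp26a1 and Cyp26b1. They include a barbiturate-inducible enzyme, an arachidonic acid epoxygenase, a vitamin D hydroxylase, the 4 Cyp4f and Cyp4v genes of the set, and the 2 retinoic acid hydroxylases of the Cyp26 family in it. When the 2-group comparison was refitted on fewer arrays, 6 of the 12 passed on the arrays with Y-linked signal alone, 2 on those without it, and 9 when HCC 1 and HCC 4 were left out. All 12 kept a difference below 0 in these 3 fits.

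**Figure D1:**
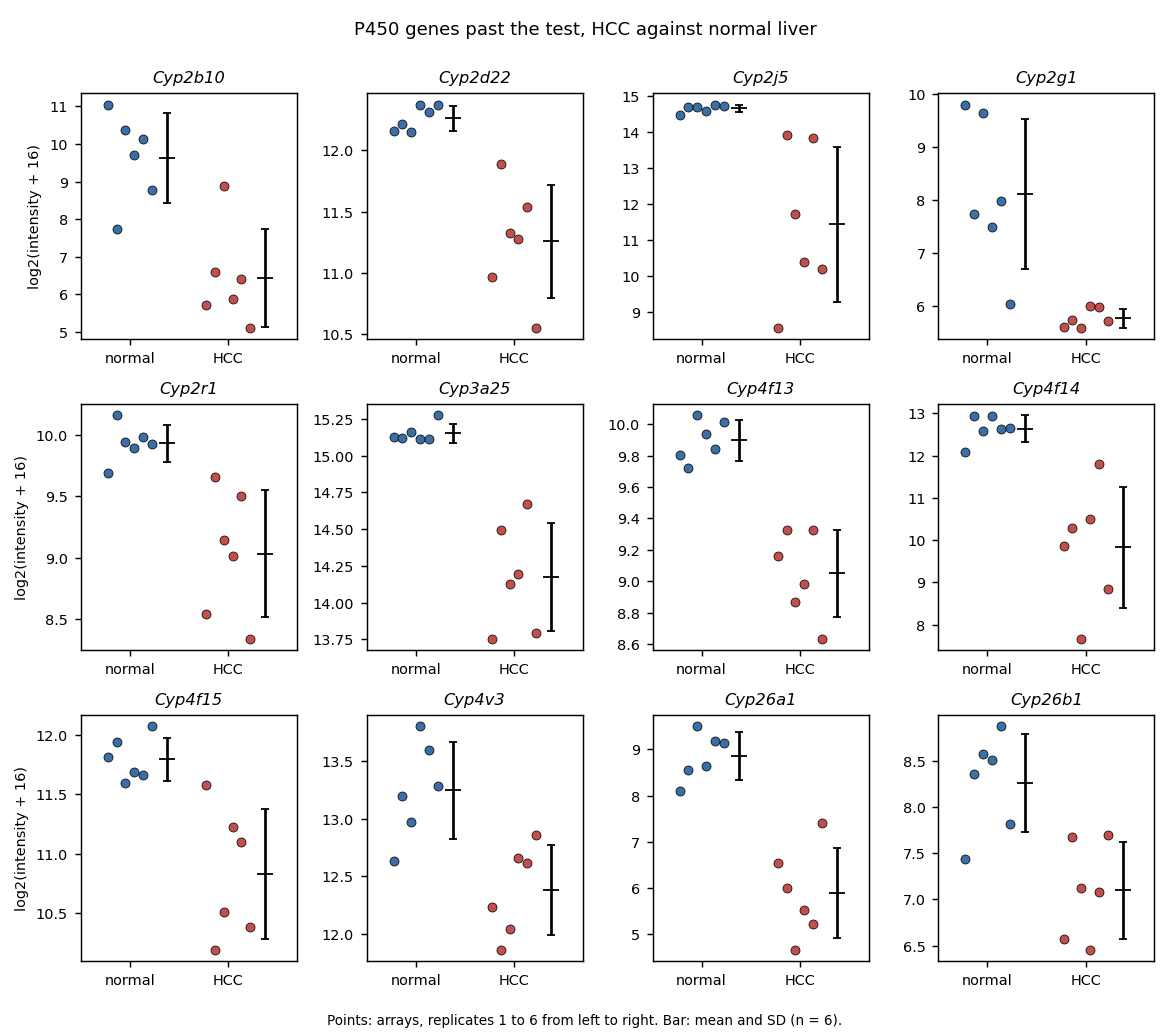
The log2 level (intensity + 16) of each of the 12 P450 genes past the test is plotted for 6 normal livers and 6 HCC, replicates 1 to 6 from left to right, with the mean and SD of each group (n = 6). The HCC points lie below all normal points in 9 panels and overlap them in those of Cyp2b10, Cyp4v3 and Cyp26b1, and each panel has its own axis range that does not start at 0.

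The retinoic acid hydroxylases fell together. Cyp26a1, which clears retinoic acid and is itself switched on by it, was at 8.10, 8.56, 9.50, 8.65, 9.19 and 9.15 in normal 1 to 6 and at 6.53, 5.99, 4.66, 5.52, 5.21 and 7.41 in HCC 1 to 6. Every tumour was below every normal liver, with HCC 6 the least low and HCC 3, at 4.66, close to the floor, which limits how well the size of its fall is measured. The log2 difference was -2.97 ± 0.41 (SE, limma adjusted p = 0.000815). Means were 8.86 ± 0.51 for normal liver and 5.89 ± 0.98 for the tumours (SD, n = 6 each). Cyp26b1, the second enzyme of that kind, was at 7.44, 8.35, 8.57, 8.50, 8.87 and 7.81 in normal liver and at 6.57, 7.67, 7.12, 6.46, 7.08 and 7.69 in HCC. The groups overlapped through normal 1, and the difference was -1.16 ± 0.29 (SE, limma adjusted p = 0.0187). Lrat, which stores retinol as esters in stellate cells and is on the stellate marker list, was also lower (-2.52 ± 0.60, SE, limma adjusted p = 0.015), and every HCC lay below every normal liver. Of the 7 markers on that list 1 rose and 2 fell, and their part in the Cyp26 values was not tested. The retinoic acid receptors Rara and Rarb stood at -0.05 ± 0.37 and -0.13 ± 0.31, and Rxra at -0.39 ± 0.13 (SE). None of these receptors passed, and their part was not tested either.

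The promoter of Cyp26a1 is shown because it holds a known type of retinoic acid response element, a direct repeat of AGTTCA with 5 bases between, which was searched on both strands. Among 30 of the 37 genes found in the RefSeq promoter table (GRCm38.p6, from 250 bases before the start of the gene to 50 after), it occurred in Cyp26a1 alone, and among all 27025 promoters in 0.0259%. The motif was added to the search after the data were seen, so its presence in Cyp26a1 is no test. The match is a description of these letters and not of a bound site. Capitals mark it, read on the reverse strand, with its first printed base 32 before the start, at chr19:37697558-37697857 on the plus strand.
Cyp26a1: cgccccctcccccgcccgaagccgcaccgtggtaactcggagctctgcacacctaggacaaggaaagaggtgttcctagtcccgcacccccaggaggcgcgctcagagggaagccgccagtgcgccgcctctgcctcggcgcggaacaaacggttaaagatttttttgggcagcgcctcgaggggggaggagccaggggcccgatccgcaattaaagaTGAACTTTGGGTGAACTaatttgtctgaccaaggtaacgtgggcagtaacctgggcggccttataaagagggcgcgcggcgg

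Among P450s of foreign compounds in the set, Cyp2b10, the classical target of the constitutive androstane receptor Nr1i3 and of phenobarbital, fell most. It was at 11.05, 7.75, 10.37, 9.70, 10.14 and 8.77 in normal liver and at 5.71, 6.59, 8.87, 5.89, 6.42 and 5.11 in HCC. 5 of the 6 tumours were below every normal liver, and HCC 3 was above normal 2 and normal 6. The difference was -3.20 ± 0.65 (SE, limma adjusted p = 0.00695). Of 2 further probe sets of the gene, 1 gave -3.33 (limma adjusted p = 0.0098 over all probe sets) and the other -2.64, which did not pass (0.0912). Nr1i3 itself fell by 1.80, from 11.09 to 9.29, with every HCC below every normal liver. Its levels in HCC 1 to 6 were 9.88, 8.43, 9.36, 10.15, 8.001 and 9.91. Among the tumours Nr1i3 was thus highest in HCC 1, HCC 4 and HCC 6, where Cyp2b10 was lowest. The part of Nr1i3 in the Cyp2b10 values was not tested.

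The 2 other Cyp2b genes of the set, Cyp2b9 and Cyp2b13, are known as higher in females and did not pass. Cyp2b9 was at 13.57, 9.57, 13.77, 11.81, 11.56 and 11.67 in normal liver and at 11.45, 12.78, 13.003, 12.19, 10.64 and 8.91 in HCC, and Cyp2b13 at 12.45, 6.72, 13.35, 8.94, 9.23 and 9.66 and at 7.16, 12.21, 11.37, 10.18, 7.32 and 7.18. Both were highest in the normal livers without Y-linked signal, and in HCC 2 and HCC 3, tumours with that signal, both lay above the 4 normal livers with it. Their differences of -0.50 ± 0.80 and -0.82 ± 1.22 (SE) turned to 0.18 and 0.88 on the arrays with Y-linked signal alone. Whether probes tell the transcripts of the 2 genes apart was not tested, and their values are uncertain to that extent. Promoter identity does not show it, since probes read transcripts. Their promoters are printed because they are near-identical. They share 298 of 300 aligned bases (99.3%), and against Cyp2b10 either shares 72.9%. Capitals mark the 2 bases that differ, at chr7:26173159-26173458 for Cyp2b9 and chr7:26061245-26061544 for Cyp2b13, both on the plus strand.
Cyp2b9: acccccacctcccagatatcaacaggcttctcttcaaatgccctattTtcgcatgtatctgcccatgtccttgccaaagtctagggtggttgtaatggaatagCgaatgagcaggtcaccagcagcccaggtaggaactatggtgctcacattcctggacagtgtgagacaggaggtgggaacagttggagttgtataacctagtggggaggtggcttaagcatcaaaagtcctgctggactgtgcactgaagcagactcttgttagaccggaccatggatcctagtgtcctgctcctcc
Cyp2b13: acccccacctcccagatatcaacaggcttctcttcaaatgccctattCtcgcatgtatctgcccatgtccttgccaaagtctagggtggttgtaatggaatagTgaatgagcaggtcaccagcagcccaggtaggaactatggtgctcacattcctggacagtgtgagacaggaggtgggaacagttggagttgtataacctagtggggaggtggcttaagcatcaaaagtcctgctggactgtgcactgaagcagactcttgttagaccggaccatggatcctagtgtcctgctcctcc

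The Cyp2d subfamily, which oxidises amine drugs and steroids, had 1 of 4 genes of the set lower. Cyp2d22 was at 12.15, 12.21, 12.15, 12.37, 12.31 and 12.37 in normal liver and at 10.96, 11.89, 11.32, 11.28, 11.54 and 10.55 in HCC, with no overlap and the lowest values in HCC 1 and HCC 6. Its difference was -1.004 ± 0.20 (SE, limma adjusted p = 0.0058), and a second probe set gave -1.21. Cyp2d10 stood at -0.29 ± 0.12, and Cyp2d26 at -0.09, a sign that turned positive with the deposited scaling. Cyp2d9, the male-biased testosterone hydroxylase, is described with the Y-linked signal below.

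Cyp2j5, an arachidonic acid epoxygenase of liver and kidney, had nearly the same level in every normal liver and scattered widely in HCC. It was at 14.49, 14.70, 14.72, 14.61, 14.77 and 14.73 in normal 1 to 6 and at 8.57, 13.92, 11.72, 10.40, 13.85 and 10.21 in HCC 1 to 6. All tumours were below all normal livers, HCC 2 and HCC 5 by little and HCC 1 by most. The difference was -3.22 ± 0.78 (SE, limma adjusted p = 0.0171), and the second probe set gave -3.28. The SD was 20.8 times as large in HCC as in normal liver, the largest ratio of the 32. Its relative Cyp2j6 did not pass (-0.43 ± 0.48), and was above all normal livers in HCC 2 and HCC 5 and below them in HCC 1, HCC 4 and HCC 6.

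Cyp2g1, a steroid hydroxylase best known from the olfactory mucosa, was at 9.80, 7.74, 9.64, 7.49, 7.98 and 6.04 in normal liver and at 5.60, 5.73, 5.58, 5.998, 5.97 and 5.72 in HCC. The tumours lay within a narrow band, and the normal livers without Y-linked signal were the highest. Its difference was -2.35 ± 0.53 (SE, limma adjusted p = 0.0118), and it was past the test both in the arrays with and in those without Y-linked signal in the model of 4 cell means used for that signal. Cyp2r1, a vitamin D hydroxylase of the liver, was at 9.69, 10.16, 9.95, 9.89, 9.98 and 9.92 in normal liver and at 8.54, 9.66, 9.14, 9.02, 9.50 and 8.34 in HCC. There was no overlap, HCC 2 came nearest to the normal range, and the difference was -0.90 ± 0.22 (SE, limma adjusted p = 0.017).

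Cyp2s1, a retinoid-oxidising enzyme found mainly outside the liver, did not pass (0.11 ± 0.32, a sign that turned without HCC 6 or without normal 3). Cyp2a12, a steroid hydroxylase and the only Cyp2a gene of the set with a probe set of its own, did not pass either (-0.78 ± 0.36). It was at 14.76, 14.44, 14.64, 14.52, 14.54 and 14.47 in normal liver and at 12.75, 14.70, 14.59, 13.28, 14.57 and 12.81 in HCC 1 to 6, below all normal livers in HCC 1, HCC 4 and HCC 6 and close to their mean of 14.56 in the other tumours.

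In the Cyp3a subfamily, which oxidises a wide range of drugs and steroids, 1 of 5 genes fell, Cyp3a25. Cyp3a11, a main drug-metabolising enzyme and target of the pregnane X receptor, was at 15.35, 15.42, 15.41, 15.55, 15.56 and 15.58 in normal liver and at 15.41, 15.41, 15.47, 15.49, 15.35 and 15.53 in HCC. Its difference was -0.04 ± 0.10 (SE), with a sign that turned positive with the deposited scaling. Only 0.121% of genes were brighter, and so near the top of the scale a difference may be understated. Cyp3a25 was at 15.13, 15.12, 15.16, 15.12, 15.12 and 15.28 in normal liver and at 13.75, 14.49, 14.13, 14.20, 14.67 and 13.79 in HCC, with every tumour below every normal liver. The difference was -0.98 ± 0.16 (SE, limma adjusted p = 0.00249). Cyp3a13 stood at -0.65 ± 0.25 and did not pass: HCC 5 lay above all normal livers and the other 5 tumours below them. It passed without HCC 5 (limma adjusted p = 0.00938) and with median centring (0.0395). Cyp3a16 had the largest difference of the subfamily, 1.23 ± 1.93, and did not pass, and Cyp3a44 stood at 0.70 ± 1.19. Cyp3a16 and Cyp3a44 share 93.4% of aligned promoter bases. Probes read transcripts, so promoter identity does not show whether they tell the 2 genes apart. That was not tested, and the values of both are uncertain to that extent.

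Fatty acid hydroxylases of the Cyp4f and Cyp4v group, which act on leukotrienes and other lipids, had 4 of 4 genes of the set lower. Cyp4f14, a leukotriene hydroxylase, was at 12.08, 12.94, 12.59, 12.93, 12.64 and 12.66 in normal liver and at 9.87, 10.29, 7.66, 10.51, 11.79 and 8.84 in HCC. No tumour reached the normal range, with HCC 5 the nearest and HCC 3 the farthest, and the difference was -2.81 ± 0.54 (SE, limma adjusted p = 0.00522). Cyp4f13 was at 9.81, 9.72, 10.06, 9.94, 9.85 and 10.01 in normal liver and at 9.16, 9.33, 8.87, 8.98, 9.33 and 8.63 in HCC, without overlap (-0.85 ± 0.15, SE, limma adjusted p = 0.00275). Cyp4f15 was at 11.81, 11.94, 11.60, 11.69, 11.66 and 12.07 and at 11.58, 10.19, 10.51, 11.22, 11.09 and 10.38. Here HCC 1 lay just under the lowest normal liver, and the difference was -0.97 ± 0.23 (SE, limma adjusted p = 0.0154). Cyp4v3, which hydroxylates medium-chain fatty acids, was at 12.64, 13.20, 12.97, 13.80, 13.59 and 13.29 in normal liver and at 12.23, 11.86, 12.04, 12.66, 12.62 and 12.86 in HCC. Only HCC 4 and HCC 6 lay within the normal range, and the difference was -0.87 ± 0.23 (SE, limma adjusted p = 0.0251). Its call was lost without normal 4, normal 5 or HCC 3 (adjusted p up to 0.0576), while a second probe set gave -0.85 (0.0103).

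Among the Cyp4a and Cyp4b genes of the set none of 3 passed after adjustment, and 2 of 3 had an unadjusted limma p under 0.05. Cyp4a12a, the male-biased fatty acid hydroxylase, had the largest difference of all 32 genes, -4.87 ± 1.56 (SE, limma adjusted p = 0.0567), with a wide spread among normal livers that followed the Y-linked signal. It passed with that signal as a covariate (0.00475), a pseudocount of 64 (0.038), a filter on dim genes (0.0294), and without normal 1 (0.0133) or normal 3 (0.0243). Cyp4a14, a target of the fatty acid receptor Ppara, stood at -2.28 ± 1.12, and Cyp4b1 at -0.73 ± 0.33. Cyp4a14 was at 12.45, 7.78, 12.86, 10.95, 11.43 and 10.10 in normal 1 to 6 and at 11.31, 6.33, 8.02, 11.83, 6.03 and 8.35 in HCC 1 to 6. HCC 2 and HCC 5 lay below all normal livers, HCC 3 and HCC 6 above normal 2 alone, and HCC 1 and HCC 4 well within the normal range. It passed with Y-linked signal as a covariate (limma adjusted p = 0.0369) and without HCC 1 and HCC 4 (0.0262).

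The remaining genes did not pass between the groups. Cyp20a1, an orphan P450 with no settled substrate, came nearest to a rise: it was at 10.59, 9.94, 10.41, 10.59, 10.66 and 10.38 in normal liver and at 10.64, 10.77, 11.08, 11.24, 10.91 and 10.91 in HCC (0.50 ± 0.16, SE, limma adjusted p = 0.0514). HCC 1 lay within the range of the normal livers and the other tumours above it. It passed with the deposited scaling (0.0414), a pseudocount of 64 (0.0331), a filter on dim genes (0.0187), a trended and robust variance (0.0237), array weights (0.0488) or without HCC 1 (0.0419). Of its 2 further probe sets 1 was at 0.40 and the other at -0.10. Cyp1a1 and Cyp1b1, the aryl hydrocarbon receptor targets that act on polycyclic hydrocarbons, stood at 0.70 ± 0.43 and 0.40 ± 0.62. Cyp1a1 was at 6.57, 6.63, 6.196, 7.22, 7.29 and 7.82 in normal liver and at 8.91, 6.85, 6.91, 7.26, 7.09 and 8.91 in HCC 1 to 6, above all normal livers in HCC 1 and HCC 6. Cyp1b1 was at 6.49, 5.79, 5.88, 6.29, 7.11 and 6.86 in normal liver and at 4.77, 6.93, 6.37, 6.57, 6.43 and 9.72 in HCC, high in HCC 6 alone, and its difference turned to -0.19 without that tumour. In HCC 6 the summed level of 7 stellate and fibroblast markers was 58477 intensity units, against 7404 to 19318 in the other tumours and 8372 to 12804 in normal liver, and Cyp2s1 was also highest there, at 8.35. The part of those cells in the Cyp1b1 and Cyp2s1 values was not tested.

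The 3 probe sets that name 2 genes each were fitted with all 45037 probe sets. The one for Cyp2a5 and Cyp2a4, a coumarin and a testosterone hydroxylase, rose in HCC. It was at 15.28, 14.01, 14.80, 14.40, 14.40 and 14.16 in normal liver and at 15.70, 15.27, 15.86, 15.50, 15.52 and 15.66 in HCC (1.08 ± 0.21, SE, limma adjusted p = 0.00827). Only HCC 2 lay below the highest normal liver. The 2 genes cannot be told apart by it, and their promoters share 294 of 301 aligned bases (97.7%). The probe set for Cyp3a41b and Cyp3a41a did not pass (-1.13 ± 1.37), and was at 15.78 and 15.86 in the normal livers without Y-linked signal and 10.01 to 10.55 in those with it. In HCC it was at 10.98, 8.76, 13.20, 14.83, 8.69 and 9.52. The probe set for Cyp4a31 and Cyp4a10 was at 14.77, 11.72, 14.89, 13.61, 13.80 and 13.30 in normal liver and at 14.49, 9.57, 9.93, 14.41, 8.47 and 10.45 in HCC. As a group the tumours did not pass (-2.46 ± 1.02, limma adjusted p = 0.166). Among the arrays with Y-linked signal the difference was -3.50 ± 0.49 (limma adjusted p = 0.0032), and HCC 1 and HCC 4 stood 4.84 ± 0.60 above the other tumours (limma adjusted p = 0.0083). Cyp4a31, outside the set, had a probe set of its own that went the other way and did not pass (1.39 ± 0.47, SE, limma adjusted p = 0.0703). It stood at 0.89 ± 0.35 with Y-linked signal and rose by 2.40 ± 0.49 without it (limma adjusted p = 0.133 and 0.0324).

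Several of these genes are known to differ between male and female mice, so arrays without and with Y-linked signal were compared within each group (limma on the 4 cell means). In normal liver 3 of 32 passed, 1 higher and 2 lower without the signal, against 0.066% and 0.121% of all genes (0.187% in either direction). Cyp3a16, a female-biased Cyp3a, was at 12.38, 4.17, 12.09, 4.16, 4.27 and 4.20 in normal 1 to 6. The 2 arrays without the signal were high and the other 4 near the floor, which makes the difference of 8.03 ± 0.75 depend on the pseudocount (SE, limma adjusted p = 0.000899). Cyp4a12a was at 5.95, 14.72, 6.82, 13.996, 14.41 and 13.98 and Cyp2d9 at 8.79, 14.40, 9.90, 14.72, 14.56 and 14.81, both low in normal 1 and normal 3. Their differences were -7.90 ± 0.53 and -5.28 ± 0.45 (SE, limma adjusted p = 0.000118 and 0.000587). Cyp3a44, another female-biased gene, was at 12.79, 6.94, 12.75, 7.33, 7.36 and 7.57 and just missed the test (5.47 ± 0.91, limma adjusted p = 0.0504). In all, 10 of 32 had both arrays without the signal above all 4 with it and 10 had both below, as in 9.36% and 9.39% of all genes. The count of 3 became 5 with a pseudocount of 64 or when HCC 3 was left out.

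The same comparison among HCC called 3 of 32, 1 higher and 2 lower without the signal, against 0.522% and 0.418% of all genes (0.94% in either direction). In 3 both arrays without the signal lay above the other 4 and in 6 below them, as in 9.99% and 8.75% of all genes. At an unadjusted limma p under 0.05 there were 10 of 32, against 2111 of all 18193 genes. Cyp3a16 was at 11.77, 5.35, 7.95, 12.37, 4.38 and 6.83 in HCC 1 to 6. It was again highest in the arrays without the signal, HCC 1 and HCC 4 (5.94 ± 0.75, SE, limma adjusted p = 0.00593). Cyp2u1, a hydroxylase of long-chain fatty acids, was at 7.70, 9.73, 7.83, 9.83, 9.35 and 9.44 in normal liver and at 4.89, 7.97, 9.12, 4.62, 7.52 and 6.99 in HCC. It was low in HCC 1 and HCC 4 (-3.14 ± 0.46, SE, limma adjusted p = 0.0125), and a second probe set of Cyp2u1 did not show this difference (-0.20). Between the groups the brightest probe set of Cyp2u1 stood at -2.13 ± 0.74 and did not pass (0.0751), while the second fell by 1.13 (limma adjusted p = 0.0150). The brightest passed with Y-linked signal as a covariate (0.0025), with the mean of all probe sets (0.035), with a filter on dim genes (0.0401) and without HCC 3 (0.0298). Cyp17a1, the steroid hydroxylase and lyase on the route to androgens, was at 8.75, 11.58, 11.98, 8.95, 11.94 and 12.54 in HCC 1 to 6, with HCC 1 and HCC 4 the lowest (-3.16 ± 0.53, SE, limma adjusted p = 0.0213). The count of 3 became 0 when HCC 1 was left out, 1 when HCC 4 was, and 7 when HCC 6 was (limma, with 10 of 32 at an unadjusted p under 0.05 over all arrays).

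HCC 1 and HCC 4 were also the tumours with the most Glul and Axin2, targets of beta-catenin. Glul was at 15.17 and 15.10 there and at 13.29 to 14.33 in normal liver, and Axin2 was at 11.76 and 10.34 against 7.65 to 8.76. HCC 6, which had Y-linked signal, was also above every normal liver in both (Glul 14.62, Axin2 9.14). In that tumour Cyp3a16 was at 6.83 and Cyp17a1 at 12.54, each nearer to the other 3 tumours with the signal than to HCC 1 and HCC 4. Cyp2u1, at 6.99 in HCC 6, lay between HCC 1 and HCC 4 (4.89 and 4.62) and the other 3 tumours with the signal (7.52 to 9.12). With 1 such tumour, the part of either in these values was not tested.

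**Figure D2:**
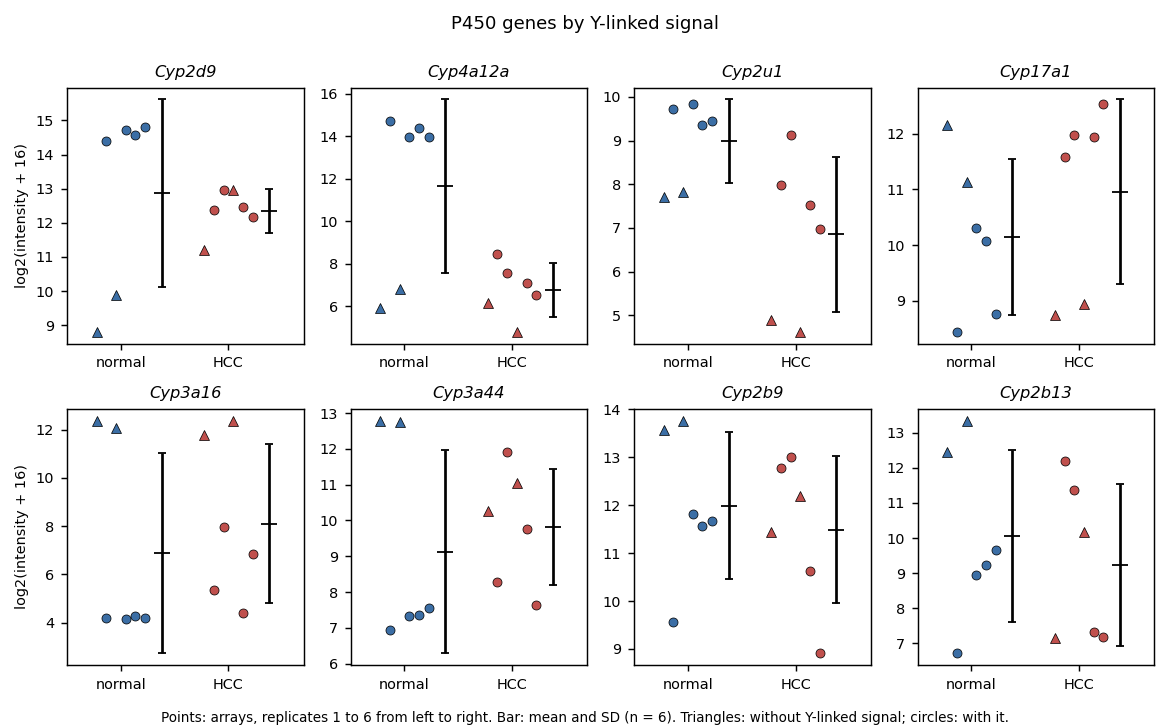
The log2 level (intensity + 16) of 8 P450 genes is plotted for 6 normal livers and 6 HCC, replicates 1 to 6 from left to right, with triangles for arrays without Y-linked signal, circles for arrays with it, and the mean and SD of each group of 6. In normal liver Cyp2d9 and Cyp4a12a are low in both triangles and Cyp3a16 and Cyp3a44 high, and in HCC only Cyp3a16, Cyp2u1 and Cyp17a1 passed the test between triangles and circles.

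The difference between HCC and normal liver itself depended on Y-linked signal in 3 of 32 genes, 2 with a positive and 1 with a negative interaction (limma, against 0.11% and 0.044% of all genes, 0.154% in either direction). At an unadjusted limma p under 0.05 there were 7 of 32, against 1570 of all 18193 genes. Cyp2d9 was at 11.20, 12.37, 12.96, 12.96, 12.46 and 12.17 in HCC 1 to 6, between the 2 levels of normal liver. Its difference was -2.13 ± 0.37 with the signal and 2.73 ± 0.52 without it, an interaction of 4.87 ± 0.64 (SE, limma adjusted p = 0.0185). Cyp4a12a was at 6.14, 8.47, 7.59, 4.79, 7.11 and 6.56 in HCC. All tumours lay far below the normal livers with the signal and around those without it, with differences of -6.84 ± 0.43 and -0.92 ± 0.61 (interaction 5.93 ± 0.75, SE, limma adjusted p = 0.0175). Cyp17a1 was at 12.15, 8.44, 11.14, 10.30, 10.08 and 8.77 in normal 1 to 6, highest in the 2 without the signal, which is the opposite order to the tumours. It rose by 2.61 ± 0.43 among arrays with the signal (limma adjusted p = 0.00496) and stood at -2.80 ± 0.61 among those without it (0.0423). Its interaction was -5.41 ± 0.74 (SE, limma adjusted p = 0.0249). Leaving out 1 array could end each of these calls. That of Cyp17a1 was lost without normal 1, normal 3, normal 6, HCC 1, HCC 4 or HCC 5 (adjusted p up to 0.136), that of Cyp2d9 without normal 1, normal 4 or normal 6, and that of Cyp4a12a without normal 1, normal 3 or HCC 1 (up to 0.108 for each). The Cyp4a12a interaction, with tumour values down to 4.79, near the floor, was also lost with a pseudocount of 1 (5.64, limma adjusted p = 0.0836), which took the count of 3 to 2. The count of 3 became 4 when HCC 6 was left out and 0 when normal 1 was, with 7 of 32 at an unadjusted limma p under 0.05 over all arrays.

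The model of 4 cell means, which takes its estimate of spread from all 12 arrays, also gave the difference within each class, and its counts are not those of the refits on fewer arrays. Within the arrays with Y-linked signal 1 of 32 rose, Cyp17a1, and 12 fell, against 4.9% and 4.94% of all genes (9.83% in either direction). Besides Cyp2d9 and Cyp4a12a, the 12 were Cyp2d22, Cyp2g1, Cyp2u1, Cyp3a25, Cyp4a14, Cyp4f13, Cyp4f14, Cyp4f15, Cyp4v3 and Cyp26a1, with Cyp4a14 at -2.88 ± 0.77 (limma adjusted p = 0.0404). Within the arrays without it 1 rose, Cyp2d9, and 5 fell, against 1.2% each way and 2.41% in either direction of all genes: Cyp2b10 at -4.91, Cyp2j5 at -5.12, Cyp2g1 at -3.92, Cyp2u1 at -3.01 and Cyp17a1. For Cyp2b10 and Cyp2j5 the values with the signal were -2.34 and -2.28, and the difference between the 2 classes did not pass for either (interaction adjusted p = 0.622 and 0.581). The count of 13 with the signal was 5 without normal 4, 7 without normal 5 and 8 without HCC 3. The count of 6 without it was 1 without normal 1, normal 3 or HCC 4, 2 without HCC 1, 3 without normal 6 and 12 without HCC 6.

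**Figure D3:**
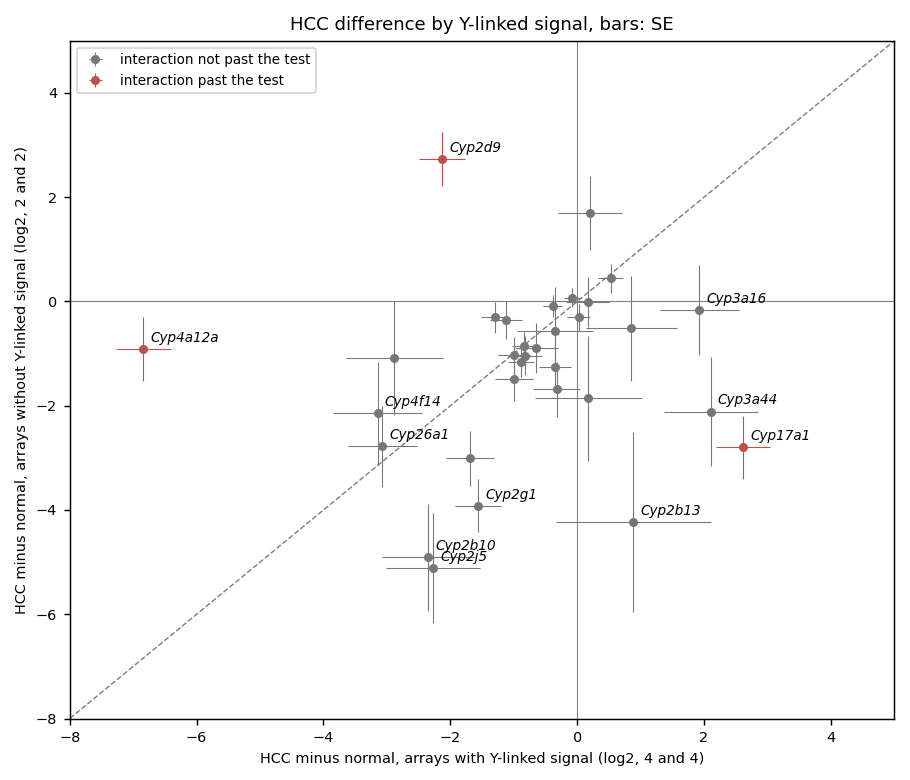
Each point is 1 of 32 P450 genes, with the log2 difference between HCC and normal liver on arrays with Y-linked signal (4 and 4) on the horizontal axis and on arrays without it (2 and 2) on the vertical axis, bars giving SE. Cyp2d9, Cyp4a12a and Cyp17a1, in red, are the 3 genes whose interaction passed the test, and the dashed line marks equal differences.

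Promoters of Cyp2d9, Cyp3a16 and Cyp3a44, whose levels in normal liver lay far apart by Y-linked signal, are printed beside those of their relatives Cyp2d10 and Cyp3a11, to show how alike they are. Of the first 3, Cyp3a44 had just missed the test. Cyp2d9 and Cyp2d10 share 255 of 306 aligned bases (83.3%), Cyp3a16 and Cyp3a44 284 of 304 (93.4%), and Cyp3a11 and Cyp3a16 237 of 315 (75.2%). Cyp2d10 was at 14.57, 14.61, 14.78, 14.92, 14.84 and 14.96 in normal liver and did not differ by Y-linked signal beyond its error (-0.16 ± 0.18). Nor did Cyp3a11 (-0.14 ± 0.16), though in it both normal livers without the signal lay just below the 4 with it. Capitals mark TATAAA, found on either strand, which occurred in 14 of the 30 promoters and in 14.2% of all 27025. Coordinates are chr15:82452127-82452426 (plus strand) for Cyp2d9, chr15:82407145-82407444 for Cyp2d10, chr5:145879805-145880104 for Cyp3a11, chr5:145469674-145469973 for Cyp3a16 and chr5:145805825-145806124 for Cyp3a44, the last 4 on the minus strand (GRCm38.p6, RefSeq).
Cyp2d9: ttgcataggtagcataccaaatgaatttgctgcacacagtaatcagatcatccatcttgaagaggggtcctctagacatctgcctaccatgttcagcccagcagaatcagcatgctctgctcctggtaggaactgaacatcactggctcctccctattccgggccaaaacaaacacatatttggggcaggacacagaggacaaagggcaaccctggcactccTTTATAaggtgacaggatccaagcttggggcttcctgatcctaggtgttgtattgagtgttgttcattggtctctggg
Cyp2d10: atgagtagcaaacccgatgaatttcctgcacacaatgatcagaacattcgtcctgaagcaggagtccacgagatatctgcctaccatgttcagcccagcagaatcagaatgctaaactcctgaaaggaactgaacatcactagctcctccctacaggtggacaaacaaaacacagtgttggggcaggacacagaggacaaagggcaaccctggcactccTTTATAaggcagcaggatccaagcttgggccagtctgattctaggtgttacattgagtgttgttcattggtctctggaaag
Cyp3a11: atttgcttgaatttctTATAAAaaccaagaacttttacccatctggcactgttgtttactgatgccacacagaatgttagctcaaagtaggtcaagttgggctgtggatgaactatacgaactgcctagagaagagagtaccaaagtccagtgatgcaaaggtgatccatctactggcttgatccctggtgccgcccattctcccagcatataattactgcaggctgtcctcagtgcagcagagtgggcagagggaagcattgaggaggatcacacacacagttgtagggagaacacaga
Cyp3a16: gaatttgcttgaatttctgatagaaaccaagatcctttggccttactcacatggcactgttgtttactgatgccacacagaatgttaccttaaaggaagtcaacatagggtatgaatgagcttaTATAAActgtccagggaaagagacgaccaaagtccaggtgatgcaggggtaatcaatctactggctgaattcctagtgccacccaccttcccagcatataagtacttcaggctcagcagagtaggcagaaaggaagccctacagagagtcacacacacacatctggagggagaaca
Cyp3a44: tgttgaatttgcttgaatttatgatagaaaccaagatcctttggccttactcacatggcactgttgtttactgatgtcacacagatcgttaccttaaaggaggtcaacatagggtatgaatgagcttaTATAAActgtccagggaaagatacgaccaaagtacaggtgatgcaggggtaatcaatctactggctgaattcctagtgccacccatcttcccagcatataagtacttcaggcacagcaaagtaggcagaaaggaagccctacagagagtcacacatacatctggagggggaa

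Other motifs searched on both strands of the same windows were few. The STAT motif TTCNNNGAA occurred in 2 of 30, Cyp4b1 and Cyp4f13, and in 8.47% of all promoters. The aryl hydrocarbon receptor motif TNGCGTG occurred in 0 of 30 and in 5.12% of all, the direct repeat of AGGTCA with 1 base between in 0 and 0.0444%, and the HNF1 motif, GTTAAT and ATTAAC with 1 base between, in 0 and 0.0074%. The everted repeat TGAACT and AGGTCA with 6 bases between occurred in 0 of 30 and in 0 of 27025. Overlaps between motifs were not removed.

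Tumour by tumour, between 15 and 22 of the 32 genes lay outside the range of the 6 normal livers, most of them below it. HCC 1 had 1 above and 18 below, HCC 2 3 and 14, HCC 3 2 and 13, HCC 4 1 and 20, HCC 5 3 and 16, and HCC 6 5 and 17. The share of all genes outside that range was 46.3%, 41.9%, 48.5%, 48.1%, 45.1% and 54.8% in HCC 1 to 6, of all genes below it 24.1%, 21.8%, 25.6%, 26.4%, 24.3% and 30%, and of all genes above it 22.2%, 20.1%, 22.9%, 21.7%, 20.8% and 24.8%. With 1 array a tumour, these counts have no test. Median differences from the normal mean over the 32 genes were lowest in HCC 6 (-1.39), HCC 1 (-1.35) and HCC 4 (-0.92) and lay at -0.53, -0.49 and -0.39 in HCC 5, HCC 2 and HCC 3.

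**Figure D4:**
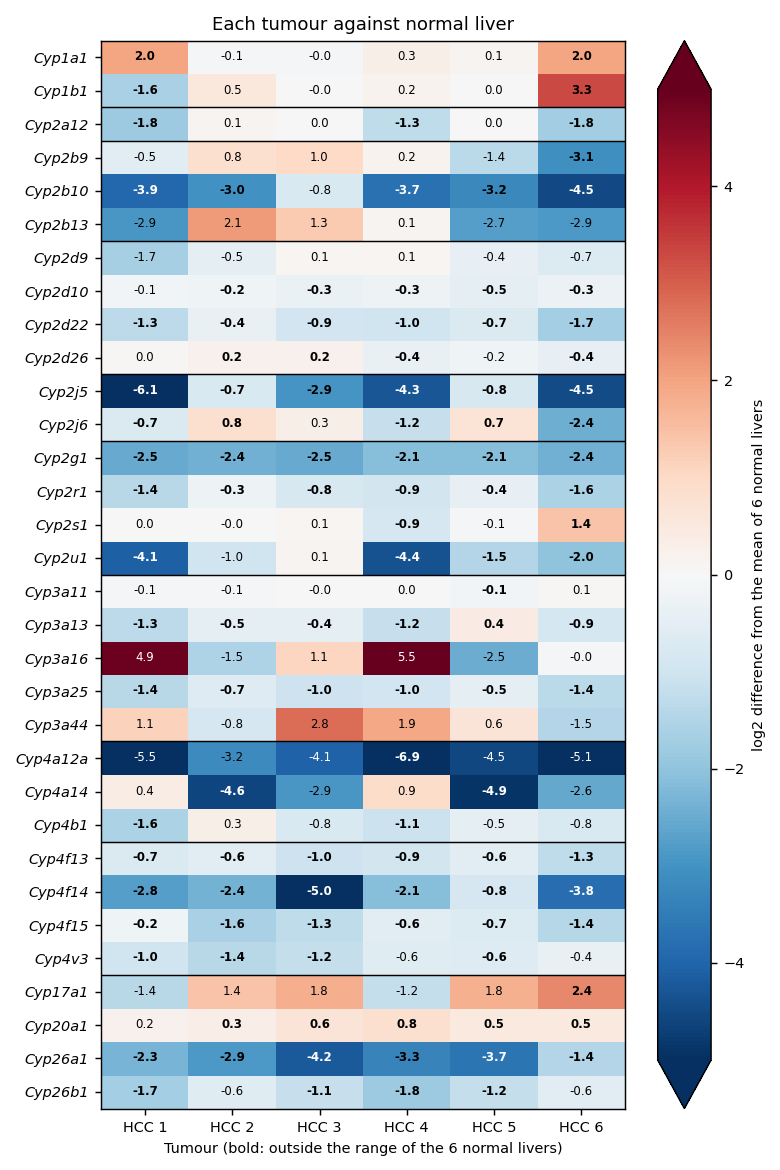
Each cell gives the log2 difference of 1 tumour from the mean of 6 normal livers for 1 of 32 P450 genes, coloured from blue (lower) to red (higher), with values past 5 in the end colours and bold where the tumour lay outside the range of the normal livers. Cyp2d22, Cyp2j5, Cyp2g1, Cyp2r1, Cyp3a25, Cyp4f13, Cyp4f14, Cyp4f15 and Cyp26a1 are bold in all 6 tumours, and Cyp2j5 is far lower in HCC 1, HCC 4 and HCC 6 than in HCC 2 and HCC 5.

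Glul lay above its normal range in HCC 1, HCC 4 and HCC 6 and below it in HCC 2, HCC 3 and HCC 5. Given as a description, 9 of the 32 genes had all 3 of the first tumours below all 3 of the second (Cyp2a12, Cyp2b10, Cyp2d22, Cyp2j5, Cyp2j6, Cyp2r1, Cyp2u1, Cyp3a13 and Cyp4a12a), as in 8.89% of all genes. Cyp1a1 and Cyp4a14 had them above, as in 7.65%. The summed level of 8 markers of hepatocytes near the central vein, Glul among them, was 118117 to 199729 in the first 3 tumours, 13859 to 32448 in the other 3 and 98913 to 112287 in normal liver. Of 4 markers of hepatocytes near the portal vein, whose sum was 48302 to 62873 in normal liver, it was 1449 in HCC 1, 1929 in HCC 4 and 15891 to 44518 in the others. Their part in these P450 values was not tested.

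Spread between tumours exceeded that between normal livers in 20 of the 32 genes (SD ratio over 1), as in 64.7% of all genes. Cyp2j5 and Cyp2a12, with ratios of 20.8 and 7.81, widened most. Cyp2g1, Cyp2d9 and Cyp4a12a had ratios of 0.126, 0.236 and 0.31, and in these 3 the normal livers without and with Y-linked signal did not overlap. In HCC Cyp2g1 lay at 5.58 to 5.998, a low level at which a narrow spread is less well measured.

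Of 30 measured partners and regulators of P450s, limma called 1 higher and 6 lower in HCC, where 6.48% of all genes were called higher and 7.24% lower. Nfe2l2, the regulator of the oxidative stress response, rose by 0.92 ± 0.20 (SE). Nr1i3 fell by 1.80 and the growth hormone receptor Ghr by 1.64, from 14.29 ± 0.13 to 12.65 ± 0.71 (SD, n = 6 each). The signal transducers of that receptor, Stat5a and Stat5b, fell by 0.75 and 0.42, the liver factor Cebpa by 0.71, and the haem-binding P450 partner Pgrmc1 by 0.45. Adjusted p of these 7 ran from 0.00268 to 0.0368. The groups did not overlap in 6 of them, Stat5a being the exception, as in 8.76% of all genes. Nr1i2, the pregnane X receptor, stood at -0.07 ± 0.14, the aryl hydrocarbon receptor Ahr at -0.39 ± 0.52, and the liver factor Hnf4a at 0.09 ± 0.12, none past the test. Ahr was at 12.48, 10.30, 9.54, 13.02, 10.14 and 11.62 in HCC 1 to 6 against 11.57 ± 0.21 in normal liver (SD, n = 6).

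Of 11 measured Cyp2c genes limma called 5 lower and 0 higher, with a median difference of -1.96. At an unadjusted limma p under 0.05 there were 7 of the 11, against 5194 of all 18193 genes. Of 30 other measured P450s 8 fell and 1 rose, Cyp4f16 (2.22 ± 0.34, SE), with a median of -0.38. At an unadjusted limma p under 0.05 there were 13 of these 30. Of all 18193 genes 7.24% were called lower and 6.48% higher, and their median difference was -0.04. The other measured Cyp4f genes outside the set, Cyp4f18, Cyp4f39 and Cyp4f41-ps, lay between -0.39 and 0.39 and did not pass. The difference between these sets and the 32 genes was not tested.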

How the data were processed

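Each of 6 HCC and 6 normal livers was hybridised to 1 single-colour Affymetrix array. Per the labels' protocols, tissue was lysed in TRIzol, RNA was cleaned on a column, and it was amplified by one-cycle cDNA synthesis. The deposited intensity values, linear and between 0.104 and 82665.9 for 45101 probe sets, shared a 2% trimmed mean of 500. How probes were summarised is not stated in the labels or file headers.

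The 64 control probe sets were left out, log2(intensity + 16) was quantile normalized, and 34945 probe sets that name 1 gene gave 18193 genes by the brightest probe set. limma (version 3.58.1, lmFit and eBayes, R 4.3.3) compared HCC with normal liver, and a model of 4 cell means split both groups by Y-linked signal, set at the widest gap in the mean of Eif2s3y, Kdm5d and Uty. Adjustment was by Benjamini-Hochberg over all genes, with a threshold of 0.05. Probe sets naming 2 genes came from a fit of all 45037 probe sets.

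The 37 genes, the partner and marker lists and the rule for naming genes were chosen with earlier results of these data known. Every gene of the set past any of these tests is given by array, and of the rest at least the one with the largest difference in each subfamily is named. Tested on simulated data, the comparison of HCC with normal liver found 4%, 40%, 94% and 100% of 50 genes, among 18193, whose log2 level had been shifted by 0.5, 1, 2 and 4. The interaction test found 0%, 2%, 30% and 72%. The simulated spread was that within the 4 cells, with no difference by Y-linked signal. Fewer genes were shifted than the 2497 that passed between HCC and normal liver, so these shares need not hold in the data.

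Results were recomputed with the deposited scaling, median centring, pseudocounts of 1 and 64, the mean of all probe sets, a filter on dim genes, array weights, a trended and robust variance, a replicate block, Y-linked signal as a covariate or as a split, each array left out, and a threshold of 0.01. Fitting every probe set and leaving out HCC 1 and HCC 4 together were added after the data were seen, as was the retinoic acid motif. Promoters came from RefSeq (GRCm38.p6) and were aligned with Biopython 1.88; figures and tables used Python 3.11.15, pandas 2.3.3 and matplotlib 3.10.9. Protein identity was not analysed here.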

Additional observations from a re-analysis of the deposited data

Results flagged for a closer look

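In 3 genes the difference between HCC and normal liver was not the same on arrays without and with Y-linked signal, by limma's interaction test. The interaction was 4.87 for Cyp2d9, 5.93 for Cyp4a12a and -5.41 for Cyp17a1 on the log2 scale, each resting on 2 arrays without and 4 with the signal in a group. Cyp3a25 in normal 6, at a log2 level of 15.28, stood above the other 5 normal livers by more than Dixon's 95% critical value allows. It was the only 1 of 70 groups of 6 arrays to do so, where chance gives about 1 in 20.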

How the results depend on the processing

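All 12 genes that fell kept that direction under every alternative run that gave a value for them. The median difference over all genes moved from -0.04 to 0.01 (deposited scaling) and -0.06 (median centring). The count of 0 genes called higher became 1 with the deposited scaling, a pseudocount of 64, a filter on dim genes, a trended and robust variance, array weights and the arrays with Y-linked signal alone. The count of 12 called lower became 3 on the arrays without Y-linked signal alone and 6 at a threshold of 0.01. Over single arrays left out, where a class left with 1 array is assumed to vary like the others, it ran from 11 to 13, and that called higher from 0 to 1.

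The count by Y-linked signal in normal liver was 5 with a pseudocount of 64 and ran from 3 to 5 with arrays left out. In HCC it was 1 at 0.01 and ran from 0 to 7, and the interaction count was 0 at 0.01 and ran from 0 to 4. With Y-linked signal 5 genes were called at 0.01 (5 to 14 with arrays left out), and without it 3 with a pseudocount of 1 and 1 at 0.01 (1 to 12).

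Of the partners, 3 were lower with the deposited scaling or every probe set fitted, 2 at 0.01 and 0 on the arrays without Y-linked signal, and 3 to 7 with arrays left out. The 1 higher was 0 with the mean of all probe sets and on either class of arrays alone, and 1 with any array left out. Cyp2c genes called lower were 8 on the arrays with Y-linked signal or without HCC 1 and HCC 4, 0 on those without the signal, 3 at 0.01 and 4 to 6 with arrays left out. Other P450s called lower were 1 on the arrays without the signal, 2 at 0.01 and 7 to 8 with arrays left out. Genes outside the normal range numbered 19 to 22 in HCC 1, 17 to 20 in HCC 2, 15 to 17 in HCC 3, 21 to 23 in HCC 4, 19 to 22 in HCC 5 and 22 to 26 in HCC 6.

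The sign turned for Cyp2d26 (0.0087) and Cyp3a11 (0.018) with the deposited scaling, and for Cyp2b9 (0.18), Cyp2b13 (0.88) and Cyp2d26 (0.023) on the arrays with Y-linked signal. On those without it it turned for Cyp1b1 (-0.51), Cyp2d9 (2.73), Cyp2s1 (-0.0097), Cyp3a11 (0.069), Cyp3a16 (-0.16), Cyp3a44 (-2.11) and Cyp17a1 (-2.80), and without HCC 1 and HCC 4 for Cyp3a16 (-0.75). With single arrays left out Cyp2s1 ran from -0.16 to 0.30, turning without HCC 6 and without normal 3 (-0.017), Cyp1b1 from -0.19 to 0.80 and Cyp2b9 from -0.99 to 0.015, both turning without HCC 6. The causes were not tested.

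Both groups are numbered 1 to 6, but deviations from the group means correlated at -0.0147 to 0.0778 between arrays of the same number, and the numbers do not pair the arrays. With the replicate number as a block 11 of the 12 genes were called lower, Cyp4f15 being lost (adjusted p = 0.0505). The block gave 1 gene by Y-linked signal in normal liver, 0 in HCC, 0 interactions, 4 called with the signal, 0 without it and 2 partners lower.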
